A study of Mus musculus with 4 samples.

Results

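Myogenic cells taken from injured muscle on day 14 after cardiotoxin were compared with those taken on day 2, the far ends of a 4-array course of regeneration. The comparison covers every probe set with a single gene symbol, 20393 of the 22690 on the array, which stand for 12394 genes. Each end is 1 array, and the arrays of days 3 and 5 are used only to show what lay between. The wording of the records separates days 3 and 14 from days 2 and 5, so day 14 against day 2 crosses that division. Whether it marks separate processing is not stated in the labels. All 4 samples came from C57BL/6 mice, 8 to 12 weeks old, and from their hind-limb muscle, with no genetic change named in the labels, and all had been injured with cardiotoxin, a toxin of snake venom that kills muscle fibres and spares most of the satellite cells beneath their basement membrane. The cells were purified straight from the muscle without culture, and the labels name SM/C-2.6, an antibody that binds satellite cells of mouse muscle. No uninjured muscle, no other genotype and no second sample of any day was analysed here. The labels state neither how many animals stand behind an array nor the other markers of the purification.

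Satellite cells are the stem cells of skeletal muscle. In resting muscle they are quiescent, express the transcription factor Pax7 and hold cell cycle inhibitors and Notch targets at a high level. After injury they enter the cell cycle and switch on MyoD, and most of their progeny express myogenin, leave the cycle and fuse into new fibres, while a minority returns to quiescence beneath a rebuilt basement membrane. Early after injury most myogenic cells are cycling, and by the end of the course the fibres are largely restored, which sets the question for the comparison of both ends. The tissue around them changes as well, since macrophages, fibro-adipogenic progenitors and endothelial cells enter, multiply and leave.

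The signals are MAS5 intensities, brought to a common trimmed mean on each array, so they have no unit beyond that scale and can be compared between days for 1 probe set but not between genes. Signals under 43.0, the median over all 4 scaled arrays, were set to that floor. A gene was called higher or lower on day 14 at a ratio of at least 2-fold, and genes that lay at the floor on day 14 and on day 2 alike counted as not measured. Where only 1 array was above the floor the ratio is a lower bound, written "at least". With 1 array a day there is no test and no error between animals. The spread that the data do hold is that between probe sets of the same gene, with an SD of 0.55 on the log2 scale over 1969 genes. Of the 1053 called genes with several measured probe sets, 943 (89.6%) had all of them moving the same way. Of 4 measures of RNA and array quality, the 3′ to 5′ ratio of Gapdh was 2.84 on day 14 and 2.17 on day 2, that of Actb 2.14 on day 14 and 1.80 on day 2, the mean 18S ribosomal RNA signal 1098 on day 14 and 2695 on day 2, and the number of genes above the floor 7439 on day 14 and 6258 on day 2. The control transcripts dap, lys, phe and thr, which protocols add before labelling, were lower on both days 3 and 14 than on days 2 and 5 in 22 of 24 probe sets, with a median signal of 48.4 on day 14 and 79.5 on day 2. Among probe sets of the hybridization controls bioB, bioC, bioD and cre 0 of 18 were split that way and 5 were higher on days 3 and 14. The part of these measures in the results below was not tested. In cells pooled by a sort, fewer cells of a kind and less RNA per cell cannot be told apart.

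Of 11 markers of the labelled cell type, myogenic cells, 10 were above the floor on day 14 and 9 on day 2. The muscle cadherin Cdh15 had a signal of 1653 on day 14 and 350 on day 2, and the laminin receptor subunit Itga7 had 1070 on day 14 and 982 on day 2. Desmin, the muscle intermediate filament (Des), had 1232 on day 14 and 888 on day 2. Of the 11, Myod1 and Chrna1 were called lower on day 14, with their values given below. Pax7 lay below the floor on day 2 alone, and the hepatocyte growth factor receptor Met on both days.

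Of 7668 genes measured at either end, 2885 were called, which is 37.6%. Higher on day 14 were 1751 genes (22.8%) and lower 1134 (14.8%). Between neighbouring arrays the shares were smaller, with 8.5% of measured genes called on day 3 against day 2, 17.6% on day 5 against day 3 and 7.91% on day 14 against day 5. These comparisons share arrays with each other and with the one described here, and each crosses the same division of the records. The higher side held the larger ratios: 595 genes were at least 4-fold higher and 235 at least 4-fold lower, and 84 were at least 16-fold higher against 4 at least 16-fold lower. It also held more bounds, 625 of the higher calls and 85 of the lower. Among the 6029 genes above the floor on both arrays, 1126 (18.7%) were higher and 1049 (17.4%) lower.

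The balance of higher and lower calls depended on signal and on scaling. In the tertile of genes with the lowest mean signal 83.1% of the calls were higher, in the middle 59.5% and in the highest 41.5%. Over all measured genes 60.7% of calls were higher, and after scaling the arrays to a common median in place of a common trimmed mean 23.5% were, with 841 genes higher and 2732 lower. That scaling moved the median log2 ratio of genes above the floor on both arrays by -0.74. The scaled median signal was 52.8 on day 14 and 29.5 on day 2. Counts of list members below are read against 22.8% higher and 14.8% lower. Counts under the common median are read against its own 841 higher and 2732 lower of 7589 measured genes. A list whose direction turns under the common median is named with that value. Lists lower on day 14 gained lower calls under it, as did all measured genes (2732 in place of 1134). The proteasome had 40 of 43 lower in place of 21, splicing 41 of 51 in place of 18, the nuclear pore 37 of 43 in place of 22, the chaperonin and HSP90 system 19 of 23 in place of 10 and DNA repair 28 of 38 in place of 13. Translation factors had 28 of 41 lower in place of 8, tRNA synthetases 26 of 28 in place of 12, the tricarboxylic acid cycle 15 of 22 in place of 3, glycolysis 13 of 17 in place of 6 and chromatin genes 23 of 39 in place of 11.

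**Figure D1:**
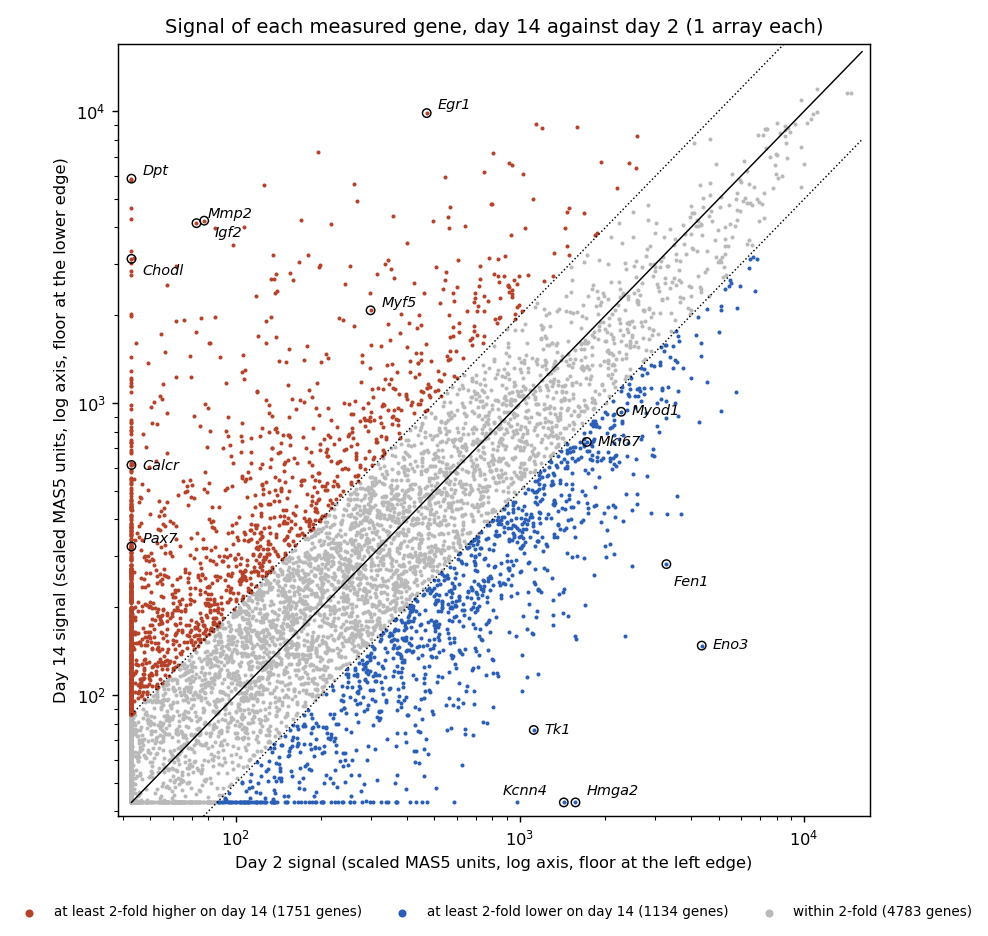
Signal of each of the 7668 measured genes on day 14 (vertical) against day 2 (horizontal), both in scaled MAS5 units on log axes; red genes were at least 2-fold higher on day 14, blue genes at least 2-fold lower, and dotted lines mark 2-fold. Genes stacked on the left edge were at the floor of 43.0 on day 2, among them Dpt and Chodl, and more of them stand there than on the lower edge, where Hmga2 and Kcnn4 lie.

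Among genes above the floor on both arrays, Btg2, an antiproliferative gene of the BTG/TOB family, had a signal of 3134 on day 14 and 43.9 on day 2, a 71.5-fold increase and the largest of them. The gelatinase Mmp2 had 4138 on day 14 and 72.8 on day 2, which is 56.9-fold higher. Insulin-like growth factor 2, Igf2, had 4220 on day 14 and 77.4 on day 2, or 54.5-fold higher. These 3 were near the floor on day 2 and far above it at the other end.

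Next came Selenop, the plasma selenium carrier, with 2950 on day 14 and 61.5 on day 2 (48.0-fold), and Postn, the matrix protein periostin, with 3983 on day 14 and 84.6 on day 2 (47.1-fold). Gpx3, the extracellular glutathione peroxidase, had 5607 on day 14 and 125 on day 2 (44.7-fold). The actin-severing protein gelsolin, Gsn, had 7234 on day 14 and 195 on day 2 (37.1-fold). Genes below the floor on day 2 reached higher bounds still. Dermatopontin, Dpt, a small protein that binds decorin and collagen, had 5877 on day 14 and was at least 137-fold higher. Itih5, an inter-alpha-trypsin inhibitor heavy chain, had 5833 on day 14 and was at least 136-fold higher. Apolipoprotein E, Apoe, had 4662 on day 14 and was at least 109-fold higher, and Serping1, the inhibitor of complement C1, had 4265 and was at least 99.3-fold higher.

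Not all of these were at their highest on day 14. Islr, a secreted protein with leucine-rich repeats, was at least 65.8-fold higher on day 14 than on day 2, yet it had 2827 on day 14 and 5856 on day 5. Postn likewise had 7737 on day 5, above its value at the end of the course.

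Among genes above the floor on both arrays that fell, Eno3, the muscle enolase of glycolysis, had 148 on day 14 and 4364 on day 2, the largest decrease (29.5-fold). Trip13, an ATPase of the spindle checkpoint and of meiotic recombination, had 159 on day 14 and 2351 on day 2 (14.8-fold lower). The fatty acyl-CoA thioesterase Acot7 had 156 on day 14 and 1578 on day 2 (10.1-fold lower). Asns, asparagine synthetase, had 103 on day 14 and 1018 on day 2 (9.87-fold lower).

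Among genes that had dropped below the floor by day 14, Hmga2, an architectural chromatin protein of embryonic and growing cells, had 1569 on day 2 and was at least 36.5-fold lower. Its 2 neighbours in size were membrane proteins, the calcium-activated potassium channel Kcnn4 (at least 33.2-fold lower) and the neural adhesion molecule Nrcam, with 975 on day 2 (at least 22.7-fold lower). The simple-epithelial keratins Krt8 and Krt18, which pair with each other, were both below the floor on day 14. Krt8 had 430 on day 2 and a log2 ratio of at most -3.32, and Krt18 had 453 on day 2 and a log2 ratio of at most -3.40.

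Most genes known from quiescent satellite cells rose. Of 41 such genes on the array 40 were measured. On day 14, 37 of them were higher and 3 within 2-fold, with none lower and a median log2 ratio of 2.92. Day 2 was at the floor for 16, and the 24 above the floor on both arrays had a median of 2.30. The median over the alternatives in processing ran between 2.25 and 3.14. Of these 41 genes 34 also stand in other lists used here, 9 of them in lists of matrix and adhesion genes.

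Chodl, a membrane C-type lectin, had signals of 15.8, 32.8, 517 and 3123 on days 2, 3, 5 and 14 and was at least 72.7-fold higher at the end. Calcr, the calcitonin receptor that holds mouse satellite cells in quiescence, had 10.4, 10.3, 49.5 and 615 on the same days and was at least 14.3-fold higher. Pax7 itself had 35.7, 59.4, 217 and 323 and was at least 7.52-fold higher. All 3 were at or near the floor through day 3 and highest on day 14.

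The order in which quiescence genes appeared was not uniform. Spry1, an inhibitor of receptor tyrosine kinase signalling, had 118, 241, 856 and 2334 on days 2, 3, 5 and 14, an increase at every array that ended 19.8-fold above day 2. Cd34, a sialomucin of quiescent satellite cells and of endothelium, had 169 on day 2, lay below the floor on day 3, had 48.6 on day 5 and reached 526 on day 14 (3.10-fold higher at the end). The cell cycle inhibitor Cdkn1c had 133, 1683, 4667 and 1970 on days 2, 3, 5 and 14, so it was 14.9-fold above day 2 at the end and highest on day 5. Sdc4, a heparan sulfate proteoglycan of satellite cells, was among the 3 members within 2-fold, with 1119 on day 14 and 609 on day 2.

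Of 18 measured myogenic regulators 10 were higher, 1 lower and the median log2 ratio was 1.23, against 7 higher, 2 lower and 0.39 under the common median. Myf5, which marks satellite cells and myoblasts, had 298, 469, 979 and 2081 on days 2, 3, 5 and 14 and was 6.98-fold higher at the end. Myod1, which commits cells to myogenesis, was the member that fell, with 2272, 1405, 500 and 935 on the same days, 2.43-fold lower at the end. Myog, needed for terminal differentiation, had 261, 3876, 1839 and 1835 and was 7.03-fold higher on day 14 than on day 2. The MyoD family therefore split: Myf5 was highest at the end, Myod1 at the start and Myog on day 3. Msc, a repressor that competes with MyoD, had 1919 on day 14 and 127 on day 2 (15.1-fold higher), and Id3, which sequesters the partners of MyoD, had 3987 on day 14 and 564 on day 2 (7.07-fold higher).

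The contractile genes did not shift as a block between the ends. Of 47 sarcomere genes on the array 25 were measured, 8 were higher and 3 lower (median log2 ratio 0.60). Under the common median 6 of 26 were higher and 4 lower (median 0.08). Higher on day 14 was cardiac actin, Actc1, the actin of embryonic and regenerating muscle, with 1497 on day 14 and 56.4 on day 2 (26.5-fold). Skeletal actin, Acta1, had 679 on day 14 and 114 on day 2 (5.97-fold higher). Lower were the tropomyosin Tpm1, with 517 on day 14 and 1839 on day 2 (3.56-fold), and the stretch-responsive repeat protein Ankrd1, with 203 on day 14 and 717 on day 2 (3.53-fold). In excitation and contraction coupling 4 of 16 measured genes were higher and 1 lower, with a median of 0.45, against 2 higher and 6 lower under the common-median scaling. There the calcium pump Atp2a1 had 519 on day 14 and 67.4 on day 2 (7.71-fold higher), while the acetylcholine receptor subunit Chrna1 had 1515 on day 14 and 3211 on day 2 (2.12-fold lower).

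Some contractile genes rose and came back within the course. Of the 4783 measured genes within 2-fold at the ends, 15 stood at least 4-fold above the nearer end on day 3 or day 5, and 0 stood 4-fold below. Of the 15, 10 had their peak on day 3 and 5 on day 5. Within 2-fold was counted after the floor was applied. Where 1 end lay below the floor, the ratio between the ends is a bound and can be larger. The sarcomere list held 6 of the 15 and 14 of the 4783, and the coupling list held 1 of the 15 and 11 of the 4783. A further 5 genes were at the floor on days 2 and 14 alike and peaked at least 4-fold above it, 2 of them in the sarcomere list and 1 in the coupling list. Embryonic myosin, Myh3, had 20.4, 2210, 339 and 80.4 on days 2, 3, 5 and 14, a peak 27.5-fold above day 14. Its day 2 signal was below the floor, so its ratio between the ends is such a bound. The fast regulatory light chain Mylpf had 64.5, 2896, 620 and 127 on the same days, and its peak was 22.7-fold above day 14. Titin, Ttn, the spring of the sarcomere, had 156, 1093, 534 and 154. Outside muscle structure, the matrix glycoprotein tenascin C, Tnc, had 258, 262, 2691 and 435 on days 2, 3, 5 and 14, highest on day 5. These comparisons share arrays, and each peak is a value on 1 array.

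**Figure D2:**
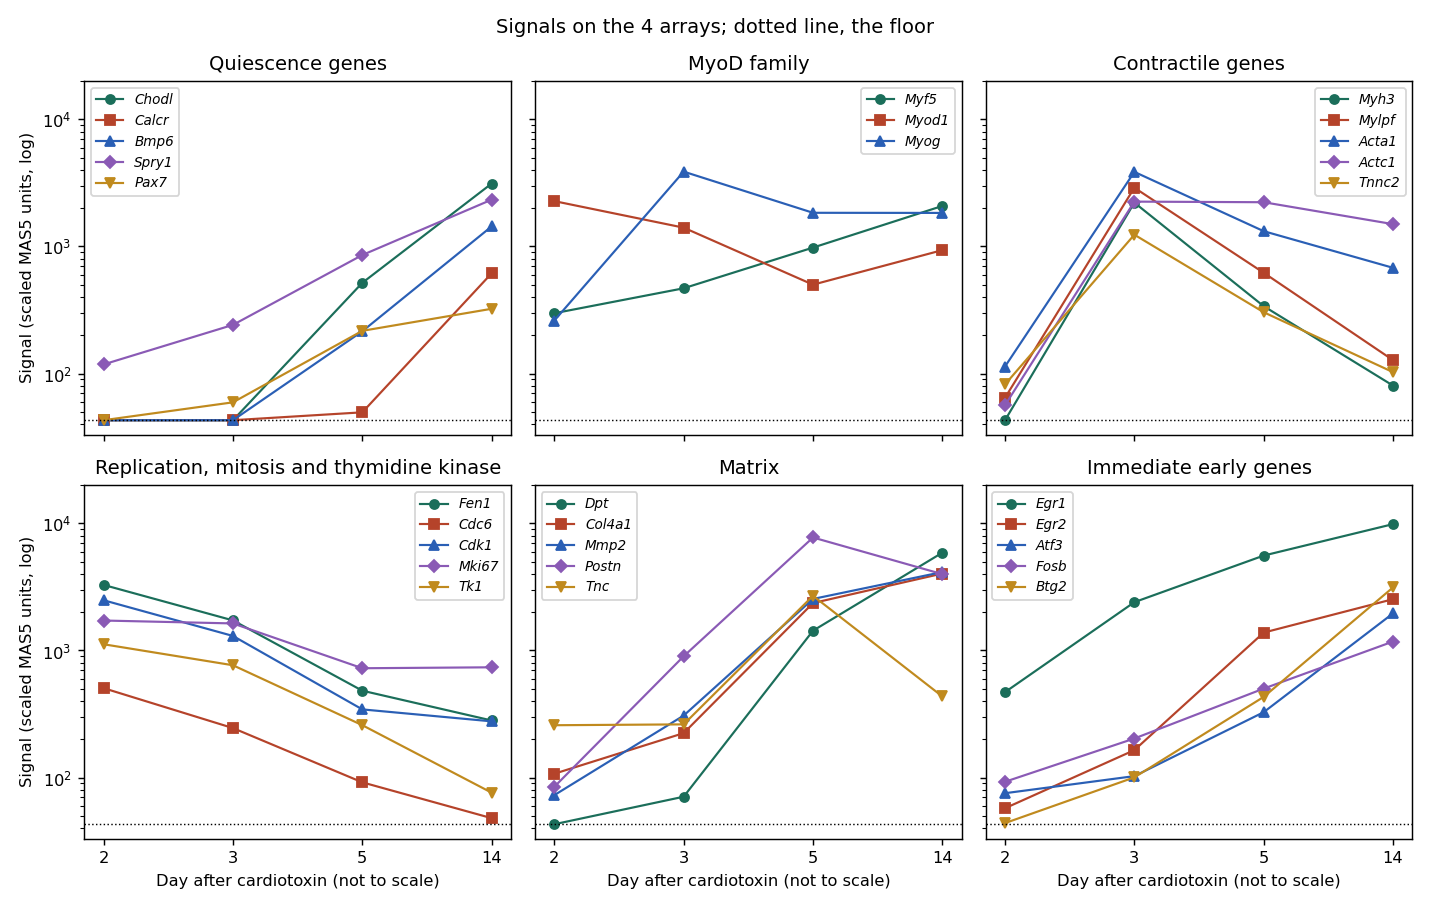
Signals of 28 genes in 6 groups on the arrays of days 2, 3, 5 and 14 (horizontal, not to scale), in scaled MAS5 units on a log axis, with the floor of 43.0 as a dotted line. Quiescence genes such as Calcr ended high, replication genes such as Cdc6 ended low, and the contractile genes shown were highest on day 3. Of these, Mylpf and Tnnc2 ended within 2-fold of day 2, as did Myh3 with day 2 at the floor, while Actc1 and Acta1 ended higher.

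Genes of DNA replication and of mitosis mostly fell. Of 49 replication genes 46 were lower on day 14, none was higher and the median log2 ratio was -1.89. Of 74 genes of G2, spindle and mitosis 62 were lower, none was higher and the median was -1.94. All 123 were measured. Every one was above the floor on day 2, while 14 had reached the floor by day 14.

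Fen1, the nuclease that trims Okazaki fragments, had 3277, 1723, 482 and 281 on days 2, 3, 5 and 14 and was 11.7-fold lower at the end. Cdc6, which loads the MCM helicase at origins, had 505, 245, 91.7 and 47.9 and was 10.5-fold lower. Gmnn, geminin, which blocks a second round of loading, had 115 on day 14 and 1060 on day 2 (9.18-fold lower). For all 3 the lowest signal was that of day 14. Among mitotic genes, the kinase Aurka had 57.8 on day 14 and 625 on day 2 (10.8-fold lower). The kinesin Kif2c, which corrects attachments of chromosomes to the spindle, had 73.0 on day 14 and 686 on day 2 (9.39-fold lower). Cdk1, the kinase that drives entry into mitosis, had 2483, 1300, 344 and 277 on days 2, 3, 5 and 14 and was 8.97-fold lower. The proliferation antigen Mki67 fell less, with 1720, 1631, 725 and 737 on the same days, 2.33-fold lower at the end and no lower on day 14 than on day 5.

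Regulators of the cycle were lower more often than higher. Of 22 measured cyclins, cyclin-dependent kinases and members of the E2F and RB families 11 were lower and 5 higher, with a median of -0.84, against 13 lower and 1 higher of 23 under the common median (median -1.51). E2f8, a repressor of the E2F family that is itself made in S phase, had 76.6 on day 14 and 641 on day 2 (8.38-fold lower), and cyclin E2, Ccne2, was at least 7.06-fold lower from 303 on day 2. The D cyclins, which answer to growth factors, differed in direction. Ccnd1 had 1324 on day 14 and 2673 on day 2, 2.02-fold lower, with its probe sets between -1.38 and -0.53 on the log2 scale and the lowest signal, 303, on day 5. Ccnd2 had 290 on day 14 and 51.2 on day 2 (5.67-fold higher), and Ccnd3 had 994 on day 14 and 330 on day 2 (3.01-fold higher). Myc, a driver of growth, was also higher, with 1161 on day 14 and 347 on day 2 (3.34-fold).

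Inhibitors of the cycle and antiproliferative genes mostly rose. Of 34 measured 27 were higher, 1 was lower and the median was 1.68, with 16 of 34 higher under the common-median scaling. Besides Btg2 and Cdkn1c, the retinoblastoma relative Rbl2, a pocket protein of resting cells, had 114 on day 14 and was at least 2.64-fold higher. Gas6, a ligand of the TAM receptors made by growth-arrested cells, had 808 on day 14 and was at least 18.8-fold higher. Cdkn1b had 201 on day 14 and 49.4 on day 2 (4.06-fold higher), but its probe sets ran between -0.32 and 2.02 on the log2 scale. Cdkn1a, the p53 target p21, stayed within 2-fold, with 2363, 3751, 1440 and 2886 on days 2, 3, 5 and 14.

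The cell cycle genes that fell are known to carry particular promoter motifs. The promoter windows of Cdc6, Cdk1 and Mki67 are printed to show them, and that of Btg2, which rose, to show another motif. All 4 were taken from genes whose window holds the motif. Windows run from 250 bases before to 50 bases after the start given by RefSeq on GRCm38.p6, on the strand of the gene, with the motif in capitals. They are Cdc6 at chr11:98907901-98908200 on the plus strand, Cdk1 at chr10:69352863-69353162 on the minus strand, Mki67 at chr7:135716330-135716629 on the minus strand and Btg2 at chr1:134079106-134079405 on the minus strand. In Cdc6 the capitals mark an E2F motif (TTTCCCGC, here on the opposite strand) at position -138, counted from the start base as 0. In Cdk1 and Mki67 they mark the cell cycle homology region (TTTGAA), at positions -71 and -15 in Cdk1 and -116 and -98 in Mki67. In Btg2, which rose most among genes above the floor on both arrays, they mark a cyclic AMP response element (TGACGTCA) at -166.
Cdc6: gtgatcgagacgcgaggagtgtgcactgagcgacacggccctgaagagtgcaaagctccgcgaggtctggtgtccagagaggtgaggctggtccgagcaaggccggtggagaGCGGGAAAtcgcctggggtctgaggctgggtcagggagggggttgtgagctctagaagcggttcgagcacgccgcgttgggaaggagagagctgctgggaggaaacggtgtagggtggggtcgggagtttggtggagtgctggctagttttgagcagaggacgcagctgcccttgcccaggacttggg
Cdk1: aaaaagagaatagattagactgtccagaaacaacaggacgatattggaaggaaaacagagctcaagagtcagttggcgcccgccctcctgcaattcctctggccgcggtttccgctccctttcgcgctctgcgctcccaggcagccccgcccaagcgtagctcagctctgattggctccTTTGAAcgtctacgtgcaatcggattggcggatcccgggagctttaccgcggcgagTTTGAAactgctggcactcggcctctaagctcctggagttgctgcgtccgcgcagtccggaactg
Mki67: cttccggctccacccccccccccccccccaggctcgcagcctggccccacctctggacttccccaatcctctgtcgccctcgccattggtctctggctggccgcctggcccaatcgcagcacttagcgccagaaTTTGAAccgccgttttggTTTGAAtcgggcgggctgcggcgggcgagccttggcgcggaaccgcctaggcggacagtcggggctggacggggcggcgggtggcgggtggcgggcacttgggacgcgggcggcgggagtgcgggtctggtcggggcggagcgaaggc
Btg2: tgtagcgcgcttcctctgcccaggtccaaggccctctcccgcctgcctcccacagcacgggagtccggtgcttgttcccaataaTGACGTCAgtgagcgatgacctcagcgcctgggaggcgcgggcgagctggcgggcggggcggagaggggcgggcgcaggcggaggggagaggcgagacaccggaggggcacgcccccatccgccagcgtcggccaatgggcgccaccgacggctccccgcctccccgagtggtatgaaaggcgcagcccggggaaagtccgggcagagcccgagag
Each motif was searched on both strands, for E2F as TTTCCCGC or TTTGGCGC. A window was available for 9888 of the 12394 array genes and for 6253 of those measured. For the 4163 genes with several windows the first listed was used. An E2F motif lay in 6.26% of windows of the 958 genes lower on day 14. It lay in 1.95% of those of the 1385 genes higher and 3.35% of those of the 3910 within 2-fold. Among the 9888 array genes it lay in 2.67%, and among all 27025 genes with a window in 1.63%. In the DNA replication list it lay in 12 of 40 windows, or 30.0%, and in the list of G2, spindle and mitosis in 6.78% of 59. The TTTGAA motif lay in 16.6% of windows of lower genes, 9.75% of higher genes and 11.2% of genes within 2-fold, and in 18.1% of all promoters. In the mitosis list it lay in 64.4% of windows and in the replication list in 20.0%. CCAAT, the box bound by NF-Y, lay in 71.2% of the mitosis windows and 60.0% of the replication windows. In windows of array genes it lay in 38.1% and in all windows in 37.9%. The cyclic AMP element was about as common in windows of higher genes (3.39%) as in those of lower genes (3.13%) and of genes within 2-fold (3.40%). A match describes letters in a window and is not a bound site.

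Most genes for the supply of nucleotides and one-carbon units fell. Of 29 measured genes 25 were lower, none was higher and the median was -1.92. Thymidine kinase, Tk1, had 1119, 765, 258 and 76.1 on days 2, 3, 5 and 14, 14.7-fold lower at the end. Mthfd2, the mitochondrial folate enzyme of proliferating cells, had 159 on day 14 and 1559 on day 2 (9.79-fold lower), and Shmt1, which makes one-carbon units from serine, had 80.7 on day 14 and 744 on day 2 (9.21-fold lower). In DNA repair 13 of 38 measured genes were lower and 2 higher, with a median of -0.70. The checkpoint kinase Chek1, with 74.4 on day 14 and 396 on day 2, was 5.32-fold lower, while the nucleotide excision factor Xpc, with 128 on day 14 and 51.9 on day 2, was 2.47-fold higher.

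Most ribosome biogenesis genes were lower on day 14. Of 60 ribosome biogenesis genes 46 were lower, 1 was higher and the median was -1.44. Wdr12, a factor for the large subunit, had 80.4 on day 14 and 767 on day 2 (9.54-fold lower), and Utp20, of the small subunit processome, had 245 on day 14 and 1117 on day 2 (4.56-fold lower). Of 43 cytosolic ribosomal proteins 39 stayed within 2-fold, 3 were higher and 1 was lower, with a median of -0.01, which became -0.85 under the common-median scaling. Rpl14 was the lower one, with 288 on day 14 and 930 on day 2 (3.23-fold). Among 41 translation factors 8 were lower and 3 higher (median -0.36), the 60S anti-association factor Eif6 having 1224 on day 14 and 3986 on day 2 (3.26-fold lower). Among 28 aminoacyl-tRNA synthetases 12 were lower and none higher (median -0.90), as with Iars, the enzyme for isoleucine, at 324 on day 14 and 1018 on day 2 (3.14-fold lower).

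Most genes of the mitochondrial ribosome and of protein import were lower. Of 68 mitochondrial ribosomal proteins 48 were lower and none higher (median -1.32), and 67 were lower under the common median, led by Mrpl18 with 118 on day 14 and 1154 on day 2 (9.77-fold lower). Of 29 genes of import and folding 19 were lower and none higher (median -1.29), among them the outer membrane receptor Tomm70a, with 226 on day 14 and 1191 on day 2 (5.27-fold lower) and its probe sets between -2.40 and -0.48. In oxidative phosphorylation 12 of 73 were lower and 1 higher, with a median of -0.47, so the share lower (16.4%) was near that of all genes. Under the common-median scaling 57 of the 73 were lower. The mobile electron carrier cytochrome c, Cycs, had 1316 on day 14 and 3756 on day 2 (2.85-fold lower). In the tricarboxylic acid cycle list 3 of 22 measured genes were higher and 3 lower (median -0.59, with 1 higher under the common median). Of the higher, Idh1 is the cytosolic isocitrate dehydrogenase, outside the cycle itself, at 538 on day 14 and 128 on day 2 (4.20-fold). Aco1, the cytosolic aconitase, is likewise outside it, at 317 on day 14 and 130 on day 2 (2.44-fold). The mitochondrial subunit Idh3a had 619 on day 14 and 2149 on day 2 (3.47-fold lower).

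In glycolysis 6 of 17 measured genes were lower and 1 higher, with a median of -0.47. Next to Eno3, the phosphoglycerate mutase Pgam1 had 489 on day 14 and 2353 on day 2 (4.82-fold lower). Hexokinase 1, Hk1, was the member that rose, with 421 on day 14 and 159 on day 2 (2.65-fold). Gapdh was within 2-fold, at 5913 on day 14 and 8078 on day 2. Fatty acid oxidation genes mostly stayed within 2-fold, 3 of 23 being higher and none lower (median 0.18), a median that turned to -0.66 under the common-median scaling. The largest of the 3 was Fabp4, a fatty acid carrier and not an oxidation enzyme, with 707 on day 14 and 48.2 on day 2 (14.7-fold higher). It is also a marker of capillary endothelium and fat. In cholesterol synthesis 3 of 20 were higher and 1 lower (median 0.41, and -0.43 under the common median), the lower one being Msmo1, a methyl sterol oxidase, with 238 on day 14 and 512 on day 2 (2.15-fold).

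Transcripts of the proteasome and of the lysosome differed in direction. Of 43 proteasome genes 21 were lower, 2 were higher and the median was -0.99. The core subunit Psma7 had 349 on day 14 and 1562 on day 2 (4.47-fold lower). The 2 that rose, Psmb8 and Psmb9, are the interferon-inducible subunits of the immunoproteasome, at least 2.50-fold and at least 2.26-fold higher, from below the floor on day 2. Of 55 lysosome and autophagy genes 30 were higher, none was lower and the median was 1.17. Under the common-median scaling 11 of 55 were higher and 3 lower (median 0.54). Cathepsin S, Ctss, had 530 on day 14 and 46.8 on day 2 (11.3-fold higher), and cathepsin K, Ctsk, which degrades collagen, had 412 on day 14 and was at least 9.59-fold higher. Map1lc3a, an LC3 protein of the autophagosome, had 427 on day 14 and 54.6 on day 2 (7.82-fold higher). Both cathepsins are also abundant in macrophages or in matrix-degrading cells, whose markers are given below.

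Chaperones also divided. Of 23 genes of the chaperonin and the HSP90 system 10 were lower and none higher (median -0.85), with the chaperonin subunit Cct7 at 2415 on day 14 and 6700 on day 2 (2.77-fold lower). Of 14 measured genes of the heat shock response 9 were higher and 1 lower, with a median of 2.22. The inducible HSP70 gene Hspa1a had 4108 on day 14 and 217 on day 2 (18.9-fold higher), and the small heat shock protein Hspb1 had 7175 on day 14 and 806 on day 2 (8.91-fold higher). In the unfolded protein response 7 of 26 measured genes were higher and 2 lower, with a median of 0.29 that turned to -0.55 under the common-median scaling. Ppp1r15a, which restores translation after stress, had 3091 on day 14 and 343 on day 2 (9.01-fold higher).

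Among genes of the nucleus most of those called were lower. In splicing 18 of 51 were lower and none higher (median -0.73), and the RNA helicase Ddx39a, which also serves mRNA export, had 418 on day 14 and 3688 on day 2 (8.82-fold lower). In the nuclear pore and transport 22 of 43 were lower and none higher (median -1.03), with Ranbp1, a regulator of the Ran GTPase, at 859 on day 14 and 4253 on day 2 (4.95-fold lower). Of 39 measured chromatin genes 11 were lower (28.2%) and 9 higher (median -0.45). The share higher, 23.1%, was near the 22.8% of all measured genes. Under the common median 4 were higher and 23 lower. Hells, a remodeller tied to DNA methylation, was at least 9.54-fold lower from 410 on day 2, and Uhrf1, which brings the maintenance methyltransferase to replicated DNA, had 124 on day 14 and 686 on day 2 (5.53-fold lower). In the other direction, Ezh1, the Polycomb methyltransferase of resting cells, had 265 on day 14 and was at least 6.17-fold higher, and the deacetylase Hdac11 had 341 on day 14 and 44.3 on day 2 (7.70-fold higher).

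**Figure D3:**
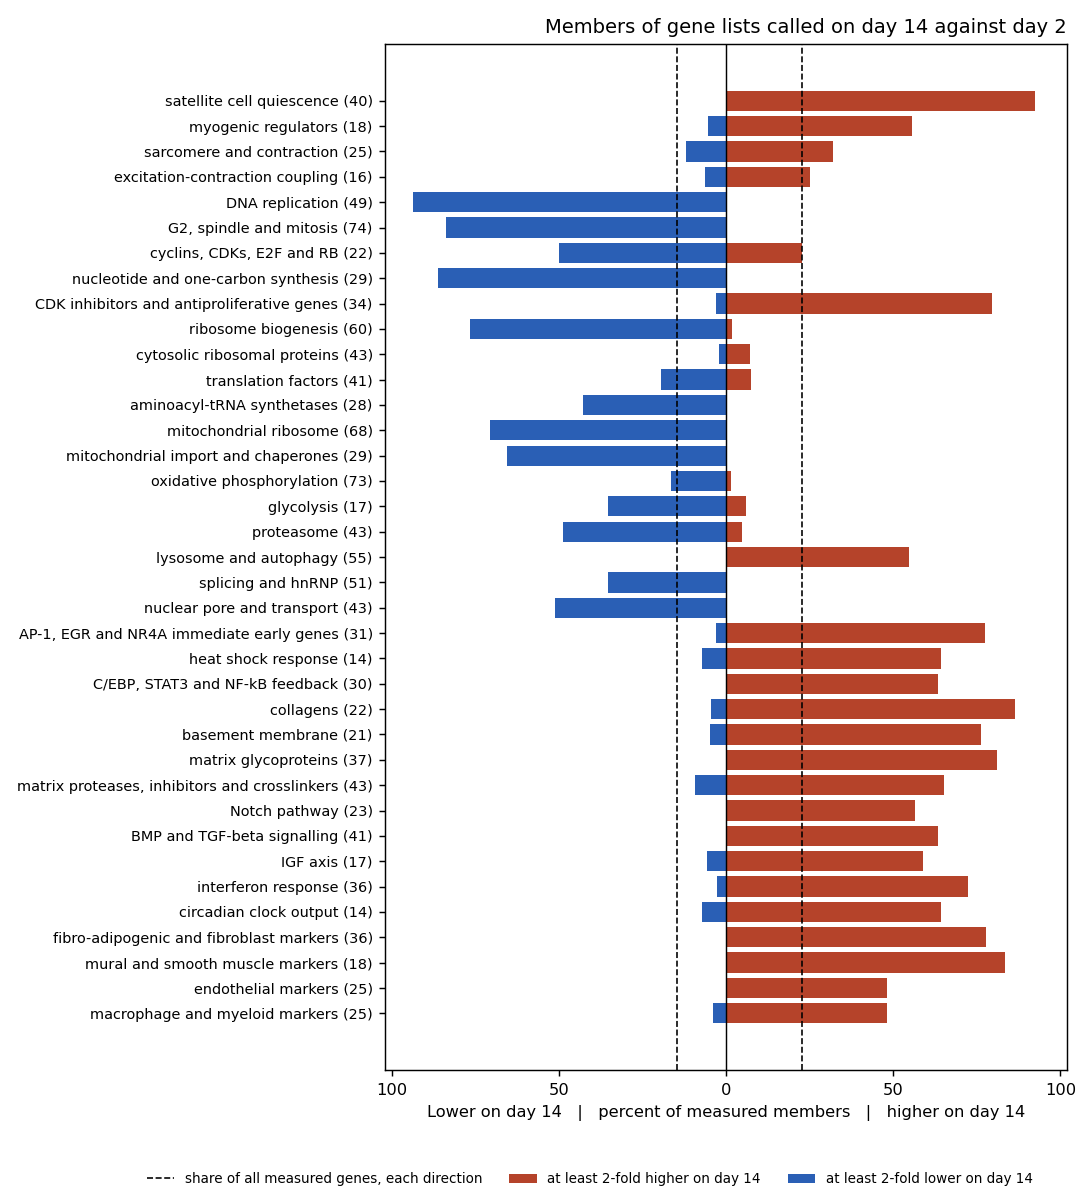
Percent of measured members (numbers in brackets) of 37 gene lists that were at least 2-fold higher (red, right) or at least 2-fold lower (blue, left) on day 14 than on day 2, with dashed lines at the shares of all measured genes, 22.8% higher and 14.8% lower. Replication, mitosis, nucleotide and ribosome biogenesis lists lie almost wholly on the left, quiescence, immediate early and matrix lists mostly on the right, and cytosolic ribosomal proteins on neither side.

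Most immediate early genes rose. Of 31 measured members of the AP-1, EGR and NR4A group 24 were higher, 1 was lower and the median was 2.60. Egr1, a zinc finger factor induced within minutes by many stimuli, had 470, 2398, 5576 and 9858 on days 2, 3, 5 and 14, 21.0-fold higher at the end. Its relative Egr2 had 57.4, 164, 1382 and 2532 (44.1-fold higher). Atf3, a stress-induced factor, had 75.3, 103, 327 and 1958 (26.0-fold higher). For all 3 the signal was higher on each later array, from day 2 to day 14. The exception in the group was Fosl1, the AP-1 subunit FRA-1, with 180 on day 14 and 505 on day 2 (2.81-fold lower). Release of cells from muscle by digestion is known to induce this group, and the labels do not state whether the procedure was the same on both days.

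Feedback regulators of cytokine signalling followed. Of 30 measured genes of the C/EBP, STAT3 and NF-kB group 19 were higher (12 under the common median) and none was lower (median 1.76). Cebpd, an acute phase transcription factor, had 2673 on day 14 and 133 on day 2 (20.1-fold higher). Socs3, the inhibitor of JAK and STAT3, had 3208 on day 14 and 179 on day 2 (17.9-fold higher), and the oncostatin M receptor Osmr had 635 on day 14 and 52.5 on day 2 (12.1-fold higher). Zfp36, which destabilises cytokine mRNAs, had 4917 on day 14 and 267 on day 2 (18.4-fold higher). Of Kruppel-like factors 6 of 13 measured were higher and none lower (median 0.84), against 2 higher and 2 lower under the common median, the largest being Klf9, a glucocorticoid-responsive factor, at 6562 on day 14 and 935 on day 2 (7.02-fold, probe sets between 0.37 and 3.26).

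Most measured genes of the extracellular matrix rose. The 5 matrix lists together held 164 genes on the array, 135 measured, 97 higher and 10 lower, with a median of 2.36. Of 33 collagen genes 22 were measured, 19 were higher and 1 was lower, with a median of 3.12. Of the 22, 10 were at the floor on 1 array, and the 12 above it on both had a median of 3.89. The basement membrane collagen Col4a1 had 107, 224, 2360 and 4028 on days 2, 3, 5 and 14, 37.6-fold higher at the end, and its partner Col4a2 had 66.0, 125, 1197 and 1928 (29.2-fold higher). The fibrillar collagen Col1a1 had 107, 330, 1256 and 1301 (12.1-fold higher). Both kinds of collagen thus had their largest step between days 3 and 5. The transmembrane Col13a1, of the neuromuscular junction, went the other way, below the floor on day 14 and at 170 on day 2, at least 3.96-fold lower.

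Among basement membrane genes as a whole 16 of 21 measured were higher and 1 lower (median 2.46), the laminin chain of muscle, Lama2, having 2428 on day 14 and 140 on day 2 (17.4-fold higher). Of 37 measured matrix glycoproteins 30 were higher and none lower (median 2.79), and 21 of them were at the floor on 1 array. Among proteoglycans, the collagen-binding biglycan, Bgn, had 5656 on day 14 and 262 on day 2 (21.6-fold higher). In that list 9 of 17 measured were higher and 4 lower (median 1.98), and the lower ones included the hyaluronan synthase Has2, with 60.2 on day 14 and 289 on day 2 (4.80-fold), and the hyaluronan receptor Cd44, with 754 on day 14 and 2666 on day 2 (3.54-fold). Matrix proteases and their inhibitors rose in 28 of 43 measured genes, 16 of the 43 being at the floor on 1 array, and fell in 4 (median 1.76). The metalloproteinase inhibitor Timp1 was among those that fell, with 593 on day 14 and 2113 on day 2 (3.56-fold), as was the urokinase receptor Plaur, with 130 on day 14 and 385 on day 2 (2.95-fold). Of 32 measured adhesion receptors 14 were higher (8 under the common median) and 3 lower (median 0.80), N-cadherin, Cdh2, being lower with 153 on day 14 and 587 on day 2 (3.85-fold, probe sets between -1.94 and -0.15).

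**Figure D4:**
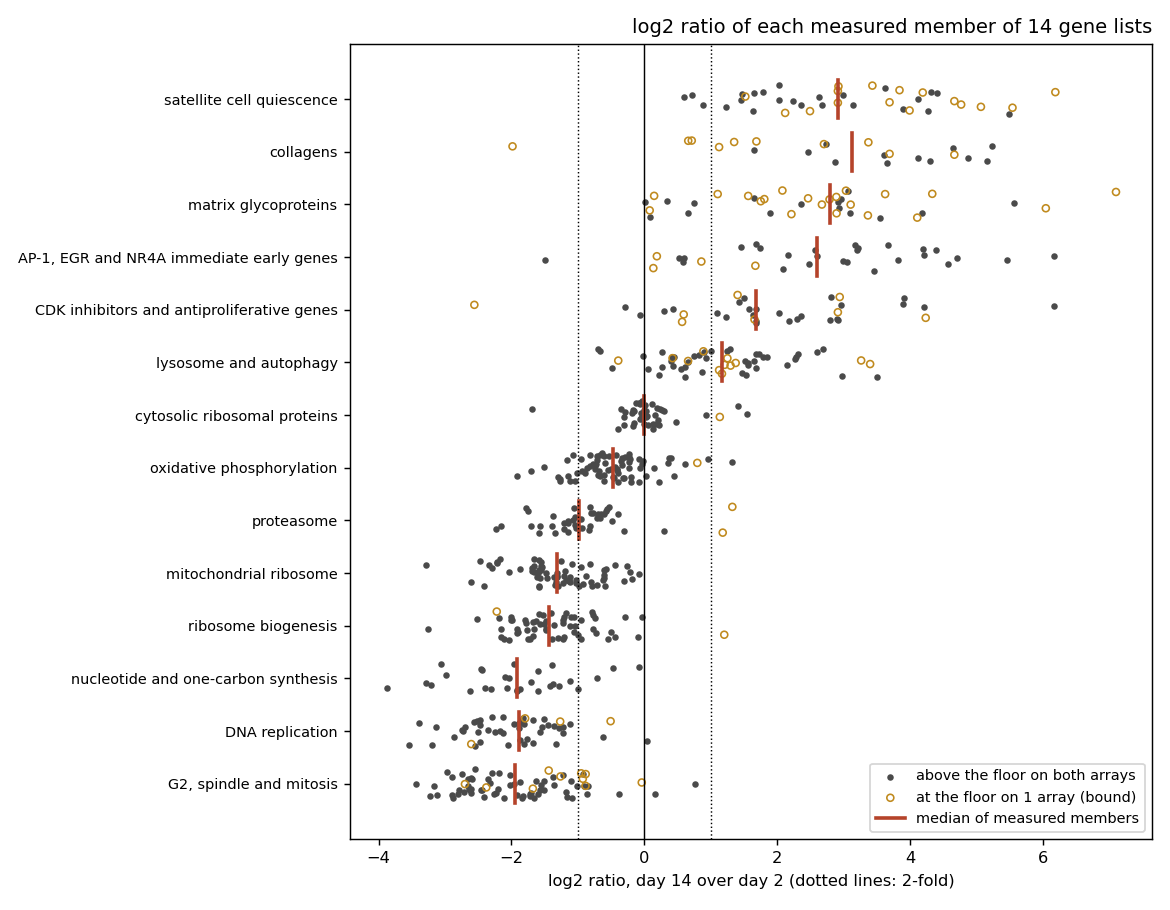
The log2 ratio of day 14 over day 2 (horizontal) for each measured member of 14 gene lists; filled points were above the floor on both arrays, open points at the floor on 1, and red bars mark medians. Medians run from 3.12 for collagens through -0.01 for cytosolic ribosomal proteins to -1.94 for G2, spindle and mitosis.

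Many markers of other cells of muscle also rose, and they stand beside the matrix and quiescence results. Of 46 markers of fibro-adipogenic progenitors and fibroblasts 36 were measured, 28 were higher and none lower. Of the 36, 20 were at the floor on 1 array, and under the common median 19 of 34 were higher and 1 lower. The summed signal of these markers was 55973 on day 14 and 7531 on day 2. Of the 46 genes 20 are also in the matrix lists, and of the 26 outside them 9 were higher among 16 measured. Pdgfra, the receptor that defines these progenitors, had 11.1, 41.7, 105 and 104 on days 2, 3, 5 and 14, at least 2.42-fold higher at the end. Of 27 markers of mural and smooth muscle cells 18 were measured and 15 were higher, with a summed signal of 15745 on day 14 and 2031 on day 2. Only 4 of the 18 were above the floor on both arrays, and 14 were at the floor on 1. Myh11, the myosin of mature smooth muscle, had 56.5 on day 14 and was within 2-fold, and calponin, Cnn1, was below the floor on both. Of 13 tenocyte markers 12 were measured and 10 were higher, 5 of the 12 being at the floor on 1 array. Their sum was 20914 on day 14 and 1662 on day 2. The tendon transmembrane protein Tnmd had 1729 on day 14 and 54.7 on day 2 (31.6-fold), and the tendon factor Scx lay below the floor on both.

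Endothelial and immune markers were often at the floor on day 2. Of 37 endothelial markers 25 were measured and 12 were higher, with a sum of 5828 on day 14 and 1999 on day 2, while Pecam1, Cdh5, Flt1 and Flt4, which define endothelium, were below the floor on both and Kdr had 59.1 on day 14. Of 43 macrophage markers 25 were measured, 12 were higher and 1 was lower, 19 of the 25 being at the floor on 1 array, and the sum was 5321 on day 14 and 4253 on day 2. Without Lgals3, chosen after its values were seen, the sum was 4840 on day 14 and 669 on day 2. The number of macrophage markers called higher was 6 with the floor at 2 times its value and 23 with the floor divided by 2, and that of endothelial markers 6 and 19. After scaling to the common median 9 macrophage and 7 endothelial markers were higher, and 1 and 3 lower. The macrophage growth factor receptor Csf1r had 20.2, 91.0, 316 and 269 on days 2, 3, 5 and 14. The pan-leukocyte gene Ptprc had 54.5 on day 14 and lay below the floor on day 2, within 2-fold of it. Lgals3, galectin 3, was the marker that fell, with 481 on day 14 and 3584 on day 2 (7.45-fold). MHC class II and dendritic markers were measured in 6 of 16, of which 5 were higher, and their sum was 1436 on day 14 and 180 on day 2. Of 17 Schwann cell and glial markers 9 were measured and 5 higher, with Sox10 below the floor on both. Of 27 adipocyte markers 18 were measured, 9 higher and 2 lower (5 and 5 under the common median), with adiponectin, Adipoq, below the floor on both. Neutrophil markers were measured in 0 of 16 genes, lymphocyte markers in 2 of 27 and red cell markers in 1 of 15. The part of other cells in the matrix, quiescence and immune results was not tested.

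Signalling pathways were mostly higher on day 14 where they moved. In the Notch pathway, which maintains quiescence in satellite cells, 13 of 23 measured genes were higher and none lower (median 1.14), or 7 of 23 under the common-median scaling. The receptor Notch3 had 1165 on day 14 and 55.3 on day 2 (21.1-fold higher), and Notch1 had 890 on day 14 and 283 on day 2 (3.15-fold higher). Their target Heyl had 9.17, 208, 781 and 1169 on days 2, 3, 5 and 14 and was at least 27.2-fold higher, and Hey1 had 97.7, 181, 176 and 623 (6.38-fold higher). Heyl and Notch3 are also markers of mural cells.

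In BMP and TGF-beta signalling 26 of 41 measured genes were higher (17 of 39 under the common median) and none lower (median 1.47). Bmp6 had 11.4, 36.4, 215 and 1437 on days 2, 3, 5 and 14 and was at least 33.4-fold higher. The related ligand Bmp4 had 50.4, 10.4, 38.4 and 972 on the same days, 19.3-fold higher and above the floor only at both ends. In the Wnt pathway 13 of 30 measured were higher and none lower (median 0.63), against 7 higher and 7 lower under the common median. Wnt4, a ligand, had 212 on day 14 and was at least 4.94-fold higher. In the IGF axis 10 of 17 measured were higher and 1 lower (median 2.16). Besides Igf2, Igf1, the growth factor of repairing muscle, had 990 on day 14 and was at least 23.1-fold higher, while the binding protein Igfbp2 was at least 3.52-fold lower from 151 on day 2. In FGF, HGF, EGF and PDGF signalling 13 of 27 measured were higher (7 under the common median) and 1 lower (median 0.82). The receptor Fgfr4 had 2770 on day 14 and 315 on day 2 (8.80-fold higher), and the neurotrophic ligand Gdnf had 47.6 on day 14 and 397 on day 2 (8.33-fold lower).

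Many genes of innate defence rose, often from below the floor. In the interferon response 26 of 36 measured genes were higher and 1 lower, with a median of 1.55, and 26 of the 36 were at the floor on 1 array. Under the common median 19 of 35 were higher, and with the floor at 2 times its value 16 of 31. The RNA sensor Ifih1 had 514 on day 14 and was at least 12.0-fold higher. Of 16 measured genes of MHC class I and antigen processing 10 were higher and none lower (median 1.29), with beta-2 microglobulin, B2m, at 4813 on day 14 and 791 on day 2 (6.08-fold higher). Of 18 measured complement and coagulation genes 13 were higher and none lower (median 1.71), 13 of the 18 being at the floor on 1 array. Of 28 measured chemokines and cytokines 8 were higher (28.6%) and 6 lower (21.4%), beside 22.8% and 14.8% of all measured genes. Their median was 0.29 and turned to -0.18 under the common-median scaling. Of the 28, 18 were at the floor on 1 array, and the 10 above it on both had a median of 0.11. With the floor at 2 times its value 5 of 16 were higher and 4 lower, and with it divided by 2, 14 of 36 and 7. Il6 had 507 on day 14 and 125 on day 2 (4.06-fold higher). Lower were the macrophage factors Mif, with 1180 on day 14 and 4565 on day 2 (3.87-fold), and Csf1, with 137 on day 14 and 383 on day 2 (2.80-fold).

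The remaining lists held further named changes. Of 28 measured FoxO and glucocorticoid-linked genes 21 were higher (12 under the common median) and none lower (median 1.66), Foxo1 itself having 459 on day 14 and 45.7 on day 2, higher by 3.33 on the log2 scale. Txnip, which binds thioredoxin and curbs glucose uptake, had 1455 on day 14 and 68.8 on day 2 (21.2-fold higher). Of 14 measured circadian genes 9 were higher and 1 lower (median 1.74), with Per1 at 250 on day 14 and 47.5 on day 2 (5.26-fold higher). The labels do not state the hour at which cells were taken.

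Antioxidant and metal-binding genes split, 18 of 44 measured being higher and 5 lower, with a median of 0.53 that turned to -0.08 under the common-median scaling. Aldh1a1, which oxidises retinal, had 1146 on day 14 and was at least 26.7-fold higher, and the transferrin receptor Tfrc had 329 on day 14 and 2077 on day 2 (6.30-fold lower). Of 22 measured imprinted genes 11 were higher and 1 lower (median 0.94), against 8 higher and 4 lower of 20 under the common median. The imprinted RNA Meg3 had 1613 on day 14 and 44.6 on day 2 (36.1-fold higher), with other probe sets as low as 0.14 on the log2 scale.

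Positional genes were sparse, 16 of 44 being measured, 5 higher and 1 lower (median 0.63), against 1 higher and 3 lower of 15 under the common median, 1 and 1 with the floor at 2 times its value and 10 and 2 with the floor divided by 2. The lower one in the counts first given was Hoxa9, with 384 on day 14 and 1364 on day 2 (3.55-fold, probe sets between -1.83 and -0.04). Among keratins, tubulins and filaments 5 of 25 measured were higher and 5 lower (median -0.43), against 2 higher and 15 lower of 24 under the common median (median -1.24), and beside the keratins the tubulin Tuba4a had 1089 on day 14 and 5760 on day 2 (5.29-fold lower). Genes best known from neurons were higher in 14 of 35 measured and lower in 4 (median 0.75). Dcx, a microtubule protein of migrating neurons, had 0.797, 25.2, 1052 and 242 on days 2, 3, 5 and 14, at least 5.62-fold higher at the end and highest on day 5, with other probe sets as low as 0.67.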

How the data were processed

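RNA of purified myogenic cells was extracted with a Qiagen RNeasy kit, labelled with biotin by a small sample assay and hybridised to Affymetrix mouse 430A arrays, per the labels' protocols. The authors deposited 1 intensity for each probe set on each array, linear and between 0 and 15686, which they made with MAS5 per the submitters' processing notes. The settings of MAS5 are not stated there, and detection calls were not used here. MAS5 subtracts mismatch from perfect match probes, so genes of low signal are noisy. A small sample assay amplifies the RNA, which favours probe sets near the 3′ end of a transcript.

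A single factor brought the 2% trimmed mean of every array to the same value, with factors of 0.976 on day 14 and 0.997 on day 2. Scaled signals under 43.0 were raised to that floor, log2 was taken and day 2 was subtracted from day 14. Of the probe sets, 53.5% lay above the floor on day 14 and 45.0% on day 2. The platform annotation listed 21084 of 22690 probe sets. One gene symbol was given for 20393 of them, and 691 with several symbols and 1606 unnamed ones, 64 of them controls, were left out. RefSeq (GRCm38.p6) held the gene ID of 20364, and 0 symbols changed. The most intense of a gene's probe sets stood for it in the 4958 genes with several. No coordinates are given for probe sets, as the labels name no build for the array's design.

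A gene was called at 2-fold, with no test, as the number of arrays limits the precision. Gene lists, 66 in all with 2181 genes on the array, were described by counts and medians beside those of all measured genes. The members and lists were chosen with earlier results of these data known. Genes named were the 12 largest increases and decreases among called genes measured on both arrays with probe sets of 1 sign, the 8 largest bounds in each direction, up to 4 called members of each list and direction, the 8 returning genes farthest from the nearer end, defining markers of other cells, and a set of genes given whether called or not; clones and unnamed transcripts were passed over. Not all are printed. Ttn and Tnc were chosen after their values were seen. Promoter windows are those of RefSeq. The alternatives were the deposited scale, a common median, quantile normalisation, centring on the median ratio, a floor 2 times as high or as low, a pseudocount of 50 in place of the floor, the median of a gene's probe sets, no cross-hybridising (_x_at, _s_at) probe sets and a 4-fold threshold. The code was tested on simulated data. Python 3.11.15, numpy 2.4.6, pandas 2.3.3 and matplotlib 3.10.9 were used.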

Additional observations from a re-analysis of the deposited data

How the results depend on the processing

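Scaling to a common median moved the balance most, to 841 genes higher and 2732 lower on day 14 (23.5% of calls higher), against 1751 and 1134 (60.7%). A 4-fold threshold, by its construction, left 595 higher and 235 lower (71.7% higher). Under the other 8 alternatives the counts stayed within 1.5 times those reported, between 1208 and 2329 higher and between 910 and 1273 lower. Under the common median 5 list medians above 0 turned below it, that of antioxidant and metal-binding genes (-0.08) and those of fatty acid oxidation (-0.66), cholesterol synthesis (-0.43), the unfolded protein response (-0.55) and chemokines (-0.18). A log2 ratio or median counted as moved where it shifted by at least 0.55, the SD between probe sets. Each of the 331 named genes measured moved under at least 1 alternative, with 625 gene results moved and 2664 not. Of 62 list medians 51 moved under at least 1. These counts follow in part from the alternatives themselves. The common-median scaling moved the median ratio by -0.74, beyond that limit. The 4-fold threshold changes no ratio, and centring moved each by -0.03. Of the named genes called, Ndufab1, a subunit of complex I and acyl carrier of mitochondria, changed sign. Its log2 ratio was -1.30 as reported and 0.0435 without the _x_at and _s_at probe sets, and the cause was not tested. No paired analysis was possible because each day has 1 array, and none could be left out. No day was repeated, so variation between animals and purifications was not measured. The added control transcripts and the wording of the records both separate days 3 and 14 from days 2 and 5, and whether this marks separate processing is not stated in the labels. Signals near the floor limit what the array can show, since 1410 genes were above it on day 14 alone and 229 on day 2 alone.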
